A study of Homo sapiens with 17 samples.

Results

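This comparison concerns monomethylation of histone H3 at lysine 4 (H3K4me1), measured by CUT&Tag in H1 human pluripotent stem cells that received shHNRNPU#1, a short hairpin RNA against HNRNPU, or shLUC, a hairpin against luciferase that served as the control. It rests on 4 of the 17 samples of the series, 2 repeats in each group. H1 is an established embryonic stem cell line. The cells grew in mTeSR1 medium on Matrigel, the hairpin virus was packaged in 293T cells, and puromycin selection began 2 days after infection, in control and knockdown cells alike. The labels do not say whether the repeats came from separate cultures. The p-values below rest on a spread between repeat lists pooled over all sites, which may be technical. How far the HNRNPU protein fell is not measured by these assays.

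H3K4me1 marks enhancers, both active and poised, and the flanks of active gene starts, where the nucleosomes closest to the start carry trimethylation instead. It is laid down at enhancers mainly by the methyltransferases KMT2C and KMT2D and removed by KDM1A. H3K27ac at the same element is a usual sign that an enhancer is active. HNRNPU, also called SAF-A, is an abundant nuclear protein that binds RNA and scaffold-attached DNA and is known for its part in keeping chromatin of active regions open.

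In CUT&Tag a transposase is tethered to the antibody and cuts DNA beside the mark. Each deposited list holds 1 summit, the highest point, for each peak, with a −log10 score. The shHNRNPU#1 lists held 147145 and 152096 summits and the shLUC lists 179137 and 181357. The scores were smaller in the shHNRNPU#1 lists, reaching 19.9 and 20.5 at the rank of 20000 against 23.5 and 25.8 in the shLUC lists. Because the number of reads behind the lists is not known, summits were compared by their rank in their own list, rank 1 being the strongest, and lists were equalised to their 20000 strongest summits. The strong summits of the 4 lists, joined within 250 bp, gave 32415 sites. A shift below is the mean log2 rank in shLUC minus that in shHNRNPU#1, so that a positive value places the site higher, that is closer to the top, after shHNRNPU#1. A rank is relative to the other sites of the same list and says nothing of the absolute amount of the mark.

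Titles and file names disagree for the control. The shLUC lists used here carry H3K4me1 in their deposited names and H3K27ac in their titles, and another shLUC pair carries the reverse, so 4 lists are affected. Of the 20000 strongest summits, the shLUC lists used here shared 68.2 to 68.8% with the H3K4me1 lists of shHNRNPU#1 and 18.2 to 20.1% with its H3K27ac lists. The other shLUC pair shared 20.9 to 22.9% and 46.4 to 51.2%, respectively. The antibody was therefore taken from the file name for the control lists, and values under the titles stand in the closing section. The antibodies named in the labels' protocol do not include one against H3K4me1, whereas the design text of the series does name the mark.

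The cell type was checked by markers. All 8 markers of pluripotent cells had an H3K4me1 summit within 5000 bp in every list, and 5 and 5 of them after shHNRNPU#1 and 4 and 4 after shLUC had a strong one. A summit of any rank did not tell cell types apart, since 14 or 15 of 15 markers of fibroblasts, blood and endothelium, all 18 mesendoderm regulators and all 23 neural regulators also had one in each list. LIN28A, an RNA-binding protein of pluripotent cells, held ranks 37 and 55 after shHNRNPU#1 and 22 and 25 after shLUC. DNMT3B, a de novo DNA methyltransferase, held ranks 137 and 143 against 120 and 69. Other pluripotent markers ranked low, L1TD1 at 84587.5 and 97876 against 78690 and 65905 and SALL4 at 38903.5 and 56542.5 against 39021 and 67025.5. Of the fibroblast, blood and endothelial markers, 5 and 8 had a strong summit after shHNRNPU#1 and 7 and 7 after shLUC. Among mesendoderm regulators it was 6 and 4 against 6 and 7. Among neural regulators it was 13 and 13 against 12 and 12, a share close to that of the pluripotent markers, so strong summits did not tell these 2 sets apart. The HNRNPU gene itself had no strong site. Its best summit stood at ranks 105608 and 98707 after shHNRNPU#1 and 91644 and 124438 after shLUC, so the groups overlapped.

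The gene starts with the clearest shifts are shown first with their sequence. Below, a site shifted means that both shHNRNPU#1 ranks lay on 1 side of both shLUC ranks with at least a 2-fold gap between the nearest ranks. This held at 1616 of 32415 sites that stood higher (4.99% of sites tested) and 1588 that stood lower (4.9%). Of these, 42 higher and 22 lower sites lay within 500 bp of the start of a protein-coding gene in the RefSeq annotation. The 3 higher ones printed were called by limma and kept a 2-fold gap when summits were matched within 1000 bp. The 3 lower ones had the widest gaps among those with a summit in every list, and none of them passed limma. All 6 were chosen after their values were seen. The 250 bases before each start, from RefSeq GRCh38.p14, are printed 5′ to 3′ along the gene's strand, with capitals for the GC box GGGCGG, the CCAAT box CCAAT, the TATA box TATAAA and the E-box CACGTG on either strand.
ODAPH: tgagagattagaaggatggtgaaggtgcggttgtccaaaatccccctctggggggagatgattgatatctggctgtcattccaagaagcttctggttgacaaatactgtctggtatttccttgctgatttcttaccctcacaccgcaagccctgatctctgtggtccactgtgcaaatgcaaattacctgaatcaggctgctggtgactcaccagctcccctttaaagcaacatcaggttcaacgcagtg
UBE3C: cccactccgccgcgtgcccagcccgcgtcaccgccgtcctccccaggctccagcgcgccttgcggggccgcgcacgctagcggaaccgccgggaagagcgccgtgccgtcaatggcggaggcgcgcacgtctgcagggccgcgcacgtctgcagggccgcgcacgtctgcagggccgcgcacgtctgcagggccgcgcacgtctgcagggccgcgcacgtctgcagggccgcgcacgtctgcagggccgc
ZNF724: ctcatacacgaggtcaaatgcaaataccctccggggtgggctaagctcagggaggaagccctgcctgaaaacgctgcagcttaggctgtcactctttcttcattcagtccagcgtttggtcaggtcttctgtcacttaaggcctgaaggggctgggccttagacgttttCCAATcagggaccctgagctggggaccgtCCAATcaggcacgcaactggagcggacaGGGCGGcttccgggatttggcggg
ABHD12B: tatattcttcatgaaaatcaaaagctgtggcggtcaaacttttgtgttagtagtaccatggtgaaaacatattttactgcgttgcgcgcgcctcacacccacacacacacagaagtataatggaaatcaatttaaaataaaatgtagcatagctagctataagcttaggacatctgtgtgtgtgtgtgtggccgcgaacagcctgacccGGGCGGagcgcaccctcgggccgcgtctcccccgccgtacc
SERPINB9: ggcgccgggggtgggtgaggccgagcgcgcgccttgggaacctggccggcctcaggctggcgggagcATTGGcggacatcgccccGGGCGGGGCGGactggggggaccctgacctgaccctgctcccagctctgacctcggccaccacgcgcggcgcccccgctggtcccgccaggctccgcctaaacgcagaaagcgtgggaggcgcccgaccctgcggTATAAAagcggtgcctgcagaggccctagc
HSD17B7: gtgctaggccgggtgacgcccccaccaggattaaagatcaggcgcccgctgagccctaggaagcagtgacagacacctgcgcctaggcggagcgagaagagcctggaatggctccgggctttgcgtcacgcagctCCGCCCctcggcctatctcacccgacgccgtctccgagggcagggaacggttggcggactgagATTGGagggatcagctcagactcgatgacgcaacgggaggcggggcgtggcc
Of all 15843 promoters of this length, 56% held a GC box, 34.5% a CCAAT box, 9.23% a TATA box and 7.84% an E-box. The start of ODAPH lies at chr4:75555816-75556065 (window, plus strand), that of UBE3C at chr7:157138676-157138925 (plus) and that of ZNF724 at chr19:23250395-23250644 (minus). The lower ones lie at chr14:50871803-50872052 for ABHD12B (plus), chr6:2903310-2903559 for SERPINB9 (minus) and chr1:162790452-162790701 for HSD17B7 (plus). The ODAPH and UBE3C windows held none of the 4 motifs, and they differ in base composition, with a GC content of 48.4% and 3 CpG pairs against 78.0% and 42. The ZNF724 window held 1 GC box and 2 CCAAT boxes, and the SERPINB9 window 2 overlapping GC boxes with 1 CCAAT box and 1 TATA box. A match is a description of letters and not of binding.

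At ODAPH, which encodes a protein of enamel formation, the site 17 bp before the start held ranks 7750 and 2305 after shHNRNPU#1 and 43043.5 and 50444 after shLUC. The shift was 3.46 (SE 0.73, limma adjusted p = 0.000975). At UBE3C, a ubiquitin ligase that works with the proteasome, the site 134 bp before the start held ranks 6975.5 and 7369 against 50763 and 32481.5, a shift of 2.50 (SE 0.73, limma adjusted p = 0.0450). H3K27ac there separated the groups the other way, at ranks 6188.5 and 6570.5 after shHNRNPU#1 against 2764.5 and 1701. At ZNF724, a zinc finger gene, the ranks were 9905 and 7297 against 86911 and 42867, a shift of 2.84 (SE 0.77, limma adjusted p = 0.0234). The separation of the groups at all 3 follows from the rule by which shifted sites were chosen. In the lists of a second hairpin, shHNRNPU#2, the ODAPH site held ranks 56316.5 and 39210.5, close to those of shLUC. The UBE3C site held 5720.5 and 11644.5 there, and the ZNF724 site 23849 and 16272.5. At HSD17B7, an enzyme of cholesterol and steroid synthesis, ranks were 42369.5 and 42660 after shHNRNPU#1 and 7642 and 12466 after shLUC, a shift of -2.12 (SE 0.75, limma adjusted p = 0.135). SERPINB9, an inhibitor of granzyme B, held ranks 50565 and 37966.5 against 10000.5 and 10876 (shift -2.07, SE 0.75, adjusted p = 0.157 by limma). For ABHD12B, ranks of 44207.5 and 50518.5 stood against 11745.5 and 9701.5 (shift -2.15, SE 0.76, adjusted p = 0.142 by limma). The lower gene starts were likewise chosen as separated, and none passed the test over all sites.

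Over all sites, the lists of a group resembled each other slightly more than lists of different groups. The shHNRNPU#1 repeats shared 71.4% of their strong summits and the shLUC repeats 73.4%, against 68.2 to 68.8% across the groups. Ranks differed at least 2-fold at 40.1% of sites between the shHNRNPU#1 repeats, at 36.1% between the shLUC repeats and at 45.1 to 46.3% across the groups. The difference between groups was therefore only a little larger than that between repeats. By limma, 283 sites rose (0.873%) and 229 fell (0.706%) at an adjusted p under 0.05, while 4025 sites (12.4%) had an unadjusted p under 0.05. These calls rest wholly on a spread pooled over all sites along a trend with rank. The spread between the repeats of the single site had no weight, so a very small p-value does not measure how well its own lists repeat. Without the trend of the pooled spread with rank, 25 sites rose and 8 fell. With any 1 list left out none passed in limma (2500 to 3286 had an unadjusted p under 0.05), and on the score scale none passed (3232). With 2 lists against 2 an exact permutation test cannot go below p = 0.33.

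Most shifted sites were changes of rank between present summits. Of the 1616 higher sites 138 (8.54%) had no summit within 250 bp in either shLUC list, and of the 1588 lower ones 183 (11.5%) had none in either shHNRNPU#1 list. When summits were matched within 1000 bp, 1474 (91.2%) and 1464 (92.2%) kept their shift, and the remainder include peaks whose summit moved. Limma also called 251 of the higher and 169 of the lower sites.

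The widest gaps among sites in or near genes came from single loci on many chromosomes. The site at chr7:123692699 in WASL, which encodes N-WASP, an activator of actin branching, held ranks 433 and 445.5 after shHNRNPU#1 and 14417 and 9986.5 after shLUC. The gap was 22.4-fold and the shift 4.77 (SE 0.79, limma adjusted p = 2.81e-06). H3K27ac separated the groups in the same direction there, at ranks 736 and 430 against 20682 and 30701. In GAS6, a ligand of the TYRO3, AXL and MERTK receptors, the site at chr13:113837868 held ranks 922 and 991, against 21275 in 1 shLUC list and no summit in the other, a gap of at least 21.5-fold (shift 6.02, SE 0.76, limma adjusted p = 2.75e-11). H3K27ac at this site held ranks 1076 and 491.5 after shHNRNPU#1 and 3436 in 1 shLUC list, with no summit in the other. With summits matched within 1000 bp the GAS6 gap was 7.5-fold, whereas that of WASL was 22.4-fold as before.

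Further sites in gene bodies were strong after shHNRNPU#1 and ranked low after shLUC. The site at chr1:226643338 in ITPKB, a kinase of inositol trisphosphate, held ranks 1923 and 2196 against 64838 and 47816 (21.8-fold, shift 4.76, SE 0.74, adjusted p = 3.62e-07 by limma). In STARD10, a lipid transfer protein, the site at chr11:72771629 held ranks 4824 and 3302.5 against 121138 and 143098 (25.1-fold, shift 5.04, SE 0.77, adjusted p = 1.37e-07 by limma). CADPS2, which primes dense-core vesicles for release, had a site at chr7:122402383 with ranks 2983 and 4532.5 and no shLUC summit, a gap of at least 39.5-fold (shift 5.62, SE 0.80, adjusted p = 1.08e-08 by limma). The wide gaps at these 3 sites follow from their choice by gap. AP1S1, a subunit of a clathrin adaptor, held 898 and 521 against 18127 and no summit at chr7:101159833, at least 20.2-fold (adjusted p = 1.94e-12 by limma). MAP4, a microtubule-associated protein, held 5058 and 6566.5 at chr3:47910978 against 172176 and no summit (adjusted p = 4.06e-05 by limma). Of these, ITPKB, STARD10 and CADPS2 sites ranked no better than 19279 in the shHNRNPU#2 lists, whereas the WASL site held ranks 236 and 105 there and the GAS6 site 2089 and 4813.

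**Figure D1:**
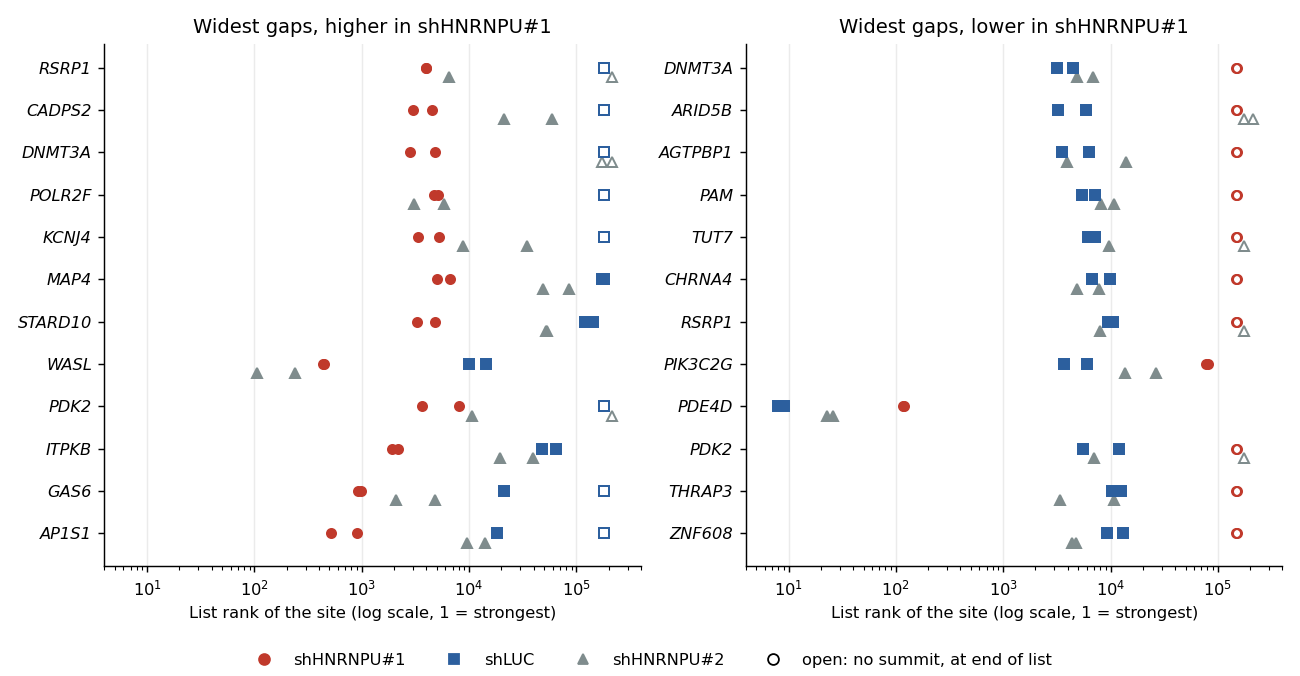
List ranks on a log axis (1 is the strongest) of the 12 sites per direction with the widest gap, 1 row per site named by its gene, with circles for the 2 shHNRNPU#1 lists, squares for the 2 shLUC lists and triangles for the 2 shHNRNPU#2 lists. Open symbols stand at the end of a list that has no summit within 250 bp; the WASL circles at 433 and 445.5 lie far left of the squares at 14417 and 9986.5, and the PDE4D squares at 9 and 8 left of the circles at 118 and 116.

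Among the sites that stood lower, PDE4D, a phosphodiesterase that breaks down cyclic AMP, carried one of the strongest summits of the shLUC lists. At chr5:59587626 it held ranks 9 and 8 after shLUC and 118 and 116 after shHNRNPU#1, a 12.9-fold gap (shift -3.79, SE 0.83, limma adjusted p = 0.00152). In the shHNRNPU#2 lists its ranks were 23 and 26, between the other groups. In PIK3C2G, a class II phosphoinositide kinase, the site at chr12:18283980 held ranks 80296 and 77309.5 after shHNRNPU#1 and 5985 and 3713.5 after shLUC (12.9-fold, shift -4.06, SE 0.74, limma adjusted p = 4.06e-05). The site at chr10:61994604 in ARID5B, a DNA-binding protein that works with a histone demethylase, held ranks 5897 and 3272 after shLUC and had no summit in either shHNRNPU#1 list or either shHNRNPU#2 list (at least 25-fold, shift -5.09, SE 0.80, limma adjusted p = 4.11e-07). The end of TUT7, which adds uridines to RNA, held ranks 6108 and 7119 after shLUC at chr9:86287198 and no summit after shHNRNPU#1 (at least 20.7-fold, adjusted p = 0.000303 by limma). All 4 kept their gap when summits were matched within 1000 bp. AGTPBP1, which trims glutamate chains from tubulin, PAM, an enzyme that amidates peptides, and THRAP3, a nuclear protein of RNA splicing, each had a site with no shHNRNPU#1 summit within 250 bp and kept a gap of over 2-fold with the wider matching.

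Not every wide gap was a change of strength. Of the 12 widest per direction, 9 higher and 7 lower sites kept a 2-fold gap in the same direction with matching within 1000 bp. In DNMT3A, a de novo DNA methyltransferase, a site at chr2:25315478 held ranks 2816 and 4770 after shHNRNPU#1 with no shLUC summit, and a site at chr2:25315134 held ranks 4475 and 3163 after shLUC with no shHNRNPU#1 summit. The summits lie close together, and no gap remained when summits were matched within 1000 bp. The loci of PDK2, a kinase that inhibits pyruvate dehydrogenase, and of RSRP1 likewise gave 1 higher and 1 lower site each. The wide gaps at KCNJ4, CHRNA4 and ZNF608 fell under 2-fold with the wider matching. RSRP1 and POLR2F, a subunit shared by the RNA polymerases, kept a higher rank with that matching.

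Several genes carried 3 or more sites shifted in 1 direction with none in the other, 12 genes higher (0.445% of the 2694 genes with 3 or more sites) and 11 lower (0.408%). EVL, an Ena/VASP protein of actin filaments, had 5 sites with a median shift of 2.68, and limma called 3 of them. Its site at chr14:99982659 held ranks 3033 and 2667.5 after shHNRNPU#1 and 27890 and 24854.5 after shLUC (shift 3.21, limma adjusted p = 0.00432). Its site at chr14:100025360 held ranks 145 and 862 against 5463 and 2701 (shift 3.44, limma adjusted p = 0.00454). SORCS2, a sorting receptor of neurons, had 4 of 9 sites higher, and CHST11, a chondroitin sulfotransferase, 3 of 7. The CHST11 site at chr12:104604249 held ranks 6618.5 and 6520 against 43292.5 and 44054.5 (shift 2.73, limma adjusted p = 0.0226). The transcription factor gene CAMTA1 had 3 of 25 sites higher, GSE1 3 of 30 and C1orf21 3 of 12, so that most of their sites did not shift. The median over all sites was 1.25 in CHST11, 0.65 in SORCS2, 0.30 in GSE1 and 0.09 in CAMTA1. In C1orf21 it was -0.34, with 4 of 12 sites positive. The shHNRNPU#1 repeats differed by a median of 1.32 in CHST11, more than its shift. They differed by 0.20 in SORCS2, 0.19 in EVL, 0.12 in GSE1 and 0.04 in CAMTA1. In C1orf21 the shLUC repeats differed by -0.85.

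On the lower side, all 11 sites of SEMA3A, a secreted guidance cue that repels axons, had a negative shift, with a median of -1.45, and 4 of them shifted without overlap. At the SEMA3A sites the shHNRNPU#1 repeats differed by a median of -0.78 and the shLUC repeats by -0.24. ZFPM2, a cofactor of GATA factors, had 4 of 8 lower and C8orf34 3 of 3. In DAB1, an adaptor of reelin signalling, 3 of 31 sites were lower, among them a strong one at chr1:57967183 with ranks 2247 and 2047 after shHNRNPU#1 and 186 and 141 after shLUC (11-fold, shift -3.73, SE 0.82, limma adjusted p = 0.00166). H3K27ac at this site held ranks 3409 and 3240.5 after shLUC, and 14754.5 with no summit in the other list after shHNRNPU#1. EPHA3, an ephrin receptor, had 3 of 9 lower, the strongest at chr3:89114803 with ranks 3354 and 2162 against 507 and 707. FRAS1, a protein of basement membranes, had 3 of 16. None of the SEMA3A sites passed limma singly.

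Genes of pluripotency and of the pathways that hold it in place were followed by lists. Of the 9371 protein-coding genes with a site in or within 5000 bp, 11.2% had at least 1 site higher and 10.3% at least 1 lower. Over all sites 4.99% stood higher and 4.9% lower. The counts of every list below are to be read beside these shares, and no list was tested against them. Of the 15 core pluripotency genes, 9 had a site, 34 sites in all, of which 4 stood higher and 1 lower. None of the 34 passed limma, and 4 had an unadjusted p under 0.05. NANOG, a factor of the core circuit, had a site at chr12:7797888, 8486 bp past its start, with ranks 11059.5 and 9690 after shHNRNPU#1 and 34886.5 and 25162 after shLUC (2.28-fold, limma adjusted p = 0.370). H3K27ac there held ranks 6988.5 and 4721 against 18201 and 17241, so both marks separated the groups in the same direction. The site at the NANOG start held 22367 and 20850.5 against 12770.5 and 26440 and overlapped. The other core shifts were in JARID2, a subunit of Polycomb complex 2, with 3 higher sites and 1 lower. Its site at chr6:15421052 held ranks 2321 and 2347.5 against 8234 and 9110, and the lower one at chr6:15327524 held 61853 and 17319 against 6992 and 5724. The sites of POU5F1, SOX2, FOXD3, LIN28A, LIN28B, CRIPTO and TERF1 did not shift 2-fold. At the LIN28B site at chr6:104956251, H3K4me1 held ranks 13982 and 16272 after shHNRNPU#1 against 24787 and 26977, higher by less than 2-fold. H3K27ac had no summit within 250 bp of this site after shHNRNPU#1 and ranks 3028 and 3063 after shLUC. Whether its summit moved was not tested, since only H3K4me1 was matched within 1000 bp.

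Of 17 formative and primed genes, 12 had 37 sites, 1 higher and 3 lower. A site 4234 bp before OTX2, a homeobox factor of the primed state, held ranks 1631 and 984 after shHNRNPU#1 and 295 and 226 after shLUC (3.34-fold, limma adjusted p = 0.145). Besides the moved summit, DNMT3A had a further lower site at chr2:25278127, with 7246 and 6982 against 2076 and 3133. Naive genes had 0 of 14 sites shifted and mesendoderm regulators 0 of 11. By limma none of these sites passed, and 0 in either list had an unadjusted p under 0.05. Among 50 sites of neural regulators, MEIS1 and MEIS2, homeobox cofactors, each had 1 lower site and RAX, a factor of the eye field, 1 higher.

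The signalling lists gave single sites in both directions, as did sites at large (4.99% higher and 4.9% lower). In the FGF list 3 of 25 sites were higher and 1 lower. SPRED2, an inhibitor of the RAS to ERK pathway, rose at chr2:65359680, from ranks 56805 and 33115 after shLUC to 2677 and 3550 after shHNRNPU#1 (9.33-fold, shift 3.81, SE 0.74, limma adjusted p = 0.000201). IL17RD, a membrane inhibitor of FGF signalling, and the receptor FGFR1 each had 1 higher site, and the immediate early gene FOS 1 lower. In the WNT list 4 of 72 sites were higher and 4 lower. LEF1, a DNA-binding partner of β-catenin, rose at chr4:108117645 from ranks 32965 and 16404 to 3502 and 4702 (3.49-fold, shift 2.52, limma adjusted p = 0.0492). TCF7L2, of the same family, had a higher site at chr10:113087561 (4576 and 5781 against 21149 and 13198.5), with H3K27ac at 2919.5 and 4508.5 against 13834.5 and 27555.5, and a lower site at chr10:112977824. TCF7L1 had sites in both directions, among them neighbouring sites with a moved summit. The ubiquitin ligase RNF43, which removes WNT receptors, had 1 lower site. Of 35 sites in the Nodal and BMP list, 1 was higher and 3 lower. SMAD7, an inhibitory SMAD, held 20566 and 26512 against 6124 and 4983, and BMPR1A, a BMP receptor, 21803 and 13878 against 4632 and 3395.5. SMAD3, which carries the Nodal signal, had 1 site in each direction. None of the Nodal and BMP sites passed limma, and 5 had an unadjusted p under 0.05.

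Genes that act on the mark or on nuclear structure showed no common direction. Writers, erasers and readers of H3K4me1 and H3K27ac had 2 of 35 sites higher and 1 lower, beside 4.99% and 4.9% over all sites. None of the 35 passed limma, and 5 had an unadjusted p under 0.05. The acetyltransferase CREBBP had a higher site at chr16:3862021, with ranks 17244.5 and 6748 after shHNRNPU#1 against 65722.5 and 40948.5 after shLUC. The demethylase KDM1A had a lower site at chr1:23047843, with 12530 and 17104 against 3470 and 5014. The list's median shift was 0.36, against -0.01 over all 32415 sites, and the shLUC repeats differed by -0.30 at the same sites. Of 28 sites in the nuclear architecture list, 2 were higher and 2 lower: LMNA, which encodes A-type lamins, had 1 in each direction, the cohesin release factor WAPL 1 higher, and SATB1, a chromatin organiser, 1 lower. LMNA also had a site that fell by limma without a 2-fold gap (chr1:156114536, adjusted p = 0.0222), where 1 shHNRNPU#1 list held rank 9582. No site of the 19 at fibroblast, blood and endothelial markers or of the 9 at stress and p53 target genes shifted or passed limma, and 1 and 0 had an unadjusted p under 0.05.

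Shifts went with the density of genes around a site. A protein-coding gene was counted where its midpoint lay within 500 kb on either side, so a site inside a long gene need not count that gene. Sites with no gene counted had a median shift of -0.17 (1052 sites), and those with 1 to 2 genes -0.16 (4830 sites). Sites with 6 to 10 genes had a median of 0.02, those with 11 to 20 genes 0.08, and those with over 20 genes 0.13 (3999 sites). The order was the same in both repeats from 1 to 2 genes upward. Against the mean of the shLUC lists, sites with over 20 genes stood at 0.05 in repeat 1 and 0.16 in repeat 2, and sites with 1 to 2 genes at -0.14 and -0.19. Among sites with 1 to 2 genes 206 were higher and 311 lower (4.27% and 6.44%), and among those with over 20 genes 215 were higher and 143 lower (5.38% and 3.58%). The medians are small beside the spread of single sites, whose shifts ran from -1.80 at the 5th to 1.86 at the 95th percentile. The repeat of shLUC differed by no more than 0.02 in any class, while the repeats of shHNRNPU#1 differed from each other along the same gradient, by -0.09 to 0.07. The shHNRNPU#2 lists did not follow it, with -0.05 and -0.04 at 1 to 2 genes and -0.08 and -0.01 at over 20. No test was run on class medians, since all sites of a class share the same 4 lists.

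**Figure D2:**
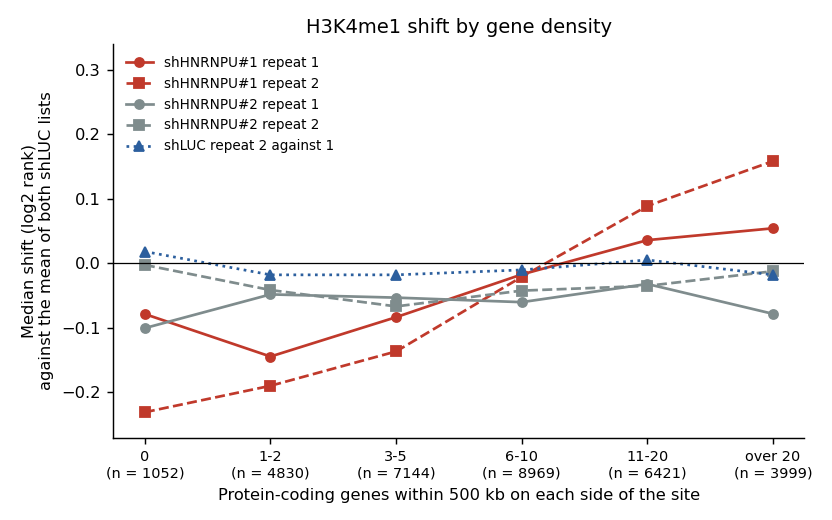
Median shift in log2 rank against the mean of both shLUC lists, by the number of nearby protein-coding genes, for each shHNRNPU#1 and shHNRNPU#2 list. Genes count where their midpoint lies within 500 kb on either side. The difference between the shLUC repeats is drawn as a dotted line. The shHNRNPU#1 lines climb from -0.14 and -0.19 at 1 to 2 genes to 0.05 and 0.16 at over 20, and the shLUC line stays within 0.02 of 0.

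Among the 20000 strongest summits, gene-poor places (2 gene midpoints or fewer within 500 kb on either side) took 17.6% and 16.6% after shHNRNPU#1 and 18.4% and 18.4% after shLUC. The shHNRNPU#2 lists held 17.9% and 18.5%. In the H3K27ac lists this share was 11.6% and 11.9% after shHNRNPU#1 and 14.4% and 14.5% after shLUC, so both marks had less of their strong summits in gene-poor places after shHNRNPU#1. Gene-dense places (over 20 genes) took 12.4% and 13.3% of H3K4me1 summits against 12.4% and 12.1%, with repeat 1 close to the control.

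By chromosome, the median shift was highest on chromosome 22 (0.23, the 4 list pairs between 0.20 and 0.25), then on 19 and 16 (0.17 each). It was lowest on chromosome 4 (-0.20, pairs between -0.20 and -0.11) and next on chromosome 6 (-0.14). All 4 pairs had a positive sign on 7 chromosomes and a negative one on 6. Across the 23 chromosomes the median shift followed the number of genes per Mb with a Spearman rho of 0.65 and a Pearson r of 0.61. The rho was 0.41 in repeat 1 and 0.76 in repeat 2 of shHNRNPU#1, 0.59 for the difference between those repeats and -0.09 for that between the shLUC repeats. For the shHNRNPU#2 lists against the same shLUC lists it was 0.41 and 0.15, with a Pearson r of 0.12 and 0.37. By chromosome, repeat 1 of both hairpins thus had a similar rho. The chromosomes share the same lists and their base composition goes with gene density, so these values are a description. The part of base composition in the gradient was not tested.

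**Figure D3:**
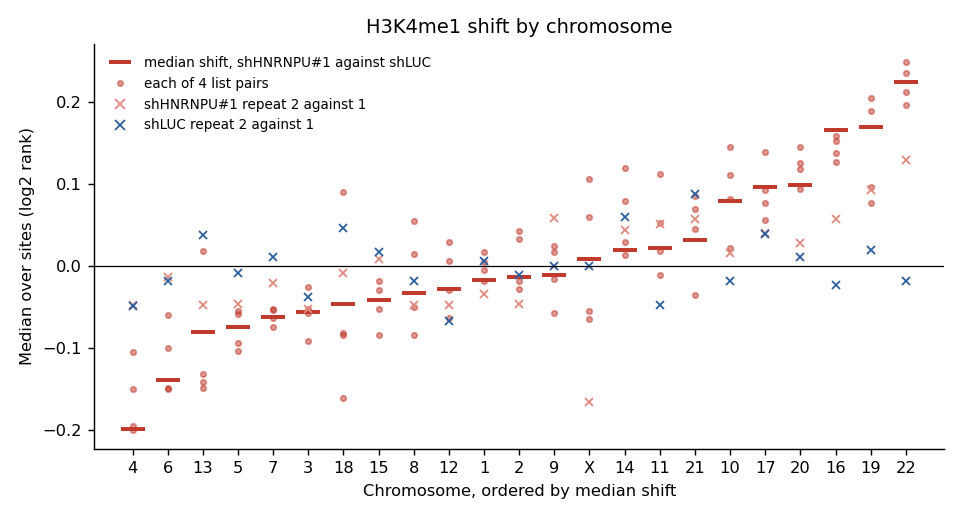
Median difference in log2 rank over the sites of each chromosome, ordered by the shift of shHNRNPU#1 against shLUC (bars), with the 4 list pairs as dots and the differences between repeats as crosses. Chromosome 22 stands highest at 0.23 with all pairs above 0, and chromosome 4 lowest at -0.20 with all pairs below 0.

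On a finer scale, 522 bins of 5 Mb held at least 20 sites. The SD of the bin medians was 0.28 between the groups, 0.22 between the shHNRNPU#1 repeats and 0.19 between the shLUC repeats. A median of -0.5 or lower was found in 34 bins and of 0.5 or higher in 10, and 142 bins had all 4 pairs negative and 114 all positive. Beyond 0.5 in either direction stood 19 bins between the shHNRNPU#1 repeats and 7 between the shLUC repeats. The low tail was thus longer between groups than between repeats.

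**Figure D4:**
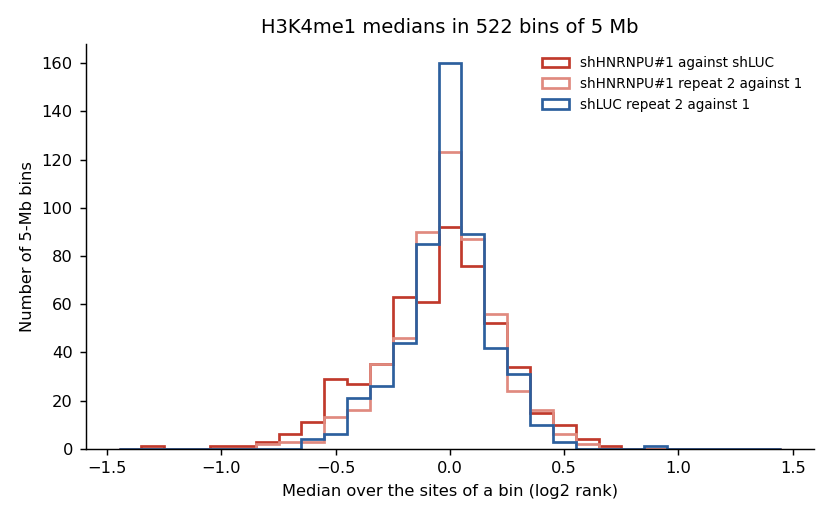
Number of 5-Mb bins by the median difference in log2 rank over their sites, for shHNRNPU#1 against shLUC and for both pairs of repeats. The between-group outline extends furthest to the left, with a bin at -1.34, and 34 bins lie at -0.5 or lower.

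The lowest bin was chr3:165000001-170000000. Of its 37 sites 32 had a negative shift, with a median of -1.34, and 10 shifted lower without overlap and 0 higher. Over all sites 4.9% shifted lower and 4.99% higher. The bins described here and below were chosen by their extreme medians, so such counts follow in part from that choice. Strong summits in it numbered 12 and 13 after shHNRNPU#1, 30 and 29 after shLUC, and 17 and 22 after shHNRNPU#2. MECOM, a zinc finger transcription factor known from blood stem cells, had 9 of these sites, all with a negative shift and a median of -1.34. A further 21 sites had no protein-coding gene within 5000 bp, with a median of -1.53 and 8 of them shifted lower. The next bin, 170 to 175 Mb, had a median of -0.07, and the one before held under 20 sites and gave no value. Strong H3K27ac summits were few there, 4 and 6 after shHNRNPU#1 against 7 and 4.

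The next lowest was chr7:80000001-85000000, with 53 sites, a median of -0.96, and 15 sites shifted lower against 2 higher (4.9% and 4.99% over all sites). It held 26 and 25 strong summits after shHNRNPU#1, 41 and 37 after shLUC, and 29 and 32 after shHNRNPU#2. Beside the 11 SEMA3A sites, SEMA3E, which acts through plexin D1, had 10 sites with a median of -0.99. PCLO, a scaffold of the presynaptic zone, had 3 sites with a median of -1.93 and HGF, the ligand of MET, 2 with -2.71. CACNA2D1, a calcium channel subunit, had 8 sites with a median of -0.31 and 1 shifted in each direction.

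At the other end, chr22:45000001-50000000 held 91 sites with a median of 0.65, and 53 and 64 strong summits after shHNRNPU#1 against 36 and 35 after shLUC and 40 and 38 after shHNRNPU#2. TBC1D22A, of a family that regulates RAB proteins, had 10 sites, 8 of them with a positive shift, and a median of 0.93. KIAA0930 had 6 sites with a median of 1.08. Bins near the ends of chromosomes 21 (0.67) and 19 (0.63) stood close to it. There strong summits numbered 25 and 23 against 13 and 18 on chromosome 21, and 25 and 28 against 20 and 16 on chromosome 19.

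**Figure D5:**
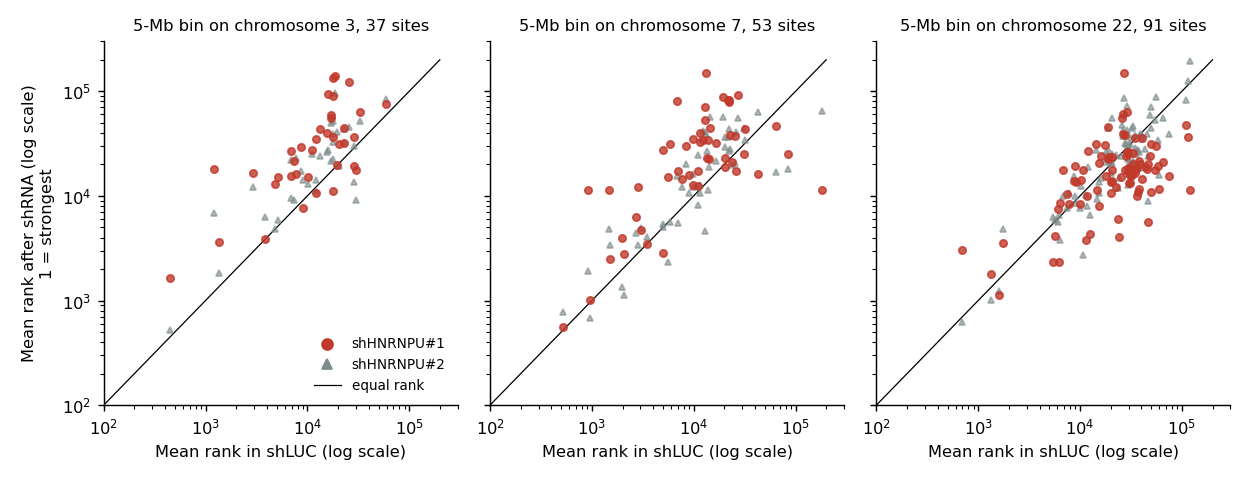
Geometric mean rank of the sites after shHNRNPU#1 (circles) and shHNRNPU#2 (triangles) against that in shLUC, on log axes with 1 as the strongest, for the bins at 165 to 170 Mb of chromosome 3, 80 to 85 Mb of chromosome 7 and 45 to 50 Mb of chromosome 22. The strongest site of the chromosome 7 bin lies beyond the axes and is not drawn. Circles above the line of equal rank are sites that stood lower after shHNRNPU#1, 32 of 37 on chromosome 3, and on chromosome 22 most lie below the line.

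Sites just before gene starts had a positive median shift but few large shifts. The 984 sites up to 500 bp before a start had a median shift of 0.27, with the 4 list pairs at 0.16 to 0.32, and 35 were higher (3.56%) and 11 lower (1.12%), both shares below those over all sites (4.99% and 4.9%). The 276 sites up to 500 bp past the start had a median of -0.04, with 7 higher (2.54%) and 11 lower (3.99%). The median before the start also differed between the shLUC repeats, by -0.13. Split by the GC content of the window, the starts with least, middle and most GC had medians of 0.12, 0.22 and 0.32. At more than 1000 and up to 2000 bp from a start the median was -0.17. Sites in gene bodies (17622) had -0.03, and intergenic ones (12322) 0.00.

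The other marks were read at the same sites. A summit of HNRNPU itself, mapped without a hairpin comparison, lay within 500 bp of 18.9% of all sites, 13.4% of the higher and 14.2% of the lower ones. The 6116 sites with HNRNPU had a median shift of 0.04 and those without -0.03. Sites with HNRNPU thus made up a smaller share of the shifted sites than of all sites, and this difference was not tested. H3K27ac was compared at sites with a summit of it. Of 732 such higher sites 55 (7.51%) had H3K27ac higher without overlap and 2-fold, and 21 (2.87%) lower. Of 678 lower sites 9 (1.33%) had it higher and 66 (9.73%) lower, and over all 14616 sites the shares were 3.26% and 4.86%. The marks moved together more often than apart, but at most shifted sites H3K27ac did not shift 2-fold. Elongating RNA polymerase II (POLIIS2P), with 1 shHNRNPU#1 library, was likewise compared only at sites with a summit of it. It stood higher at 82 of 695 such higher sites (11.8%) and 59 of 653 such lower ones (9.04%), against 9.74% of all 15209.

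The second hairpin shares the shLUC lists with the first, so its values are placed beside and not counted as support. At 1131 of the 1616 higher sites (70.0%) both shHNRNPU#2 lists stood above the mean of shLUC, and at 1201 of the 1588 lower ones (75.6%) both stood below it. Over all sites these shares were 31.0% and 35.1%. Of the 12 sites with the widest gap, 9 higher and 6 lower ones had both shHNRNPU#2 lists on the same side. The PDE4D, WASL and GAS6 sites are among these, and the lower sites of THRAP3, ZNF608 and CHRNA4 are not.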

How the data were processed

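The authors deposited 1 list of MACS2 summits per library, each summit with a −log10 p or q score (which of the 2 is not given in the sources used here). The submitters' processing notes name cutadapt, Bowtie2, SAMtools, MACS2, deepTools and the build hg38, without versions. Read depth is unknown. The study's statement of methods was not used, since the paper given here describes other cells.

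The 20000 highest-scoring summits of the 4 lists were joined within 250 bp into 32415 sites. Each site took, from each full list, the rank of its strongest summit within 250 bp (tied scores share the mean rank), or the rank after the last summit where there was none. The negative log2 ranks were compared with limma 3.58.1 in R 4.3.3 (trended empirical Bayes, Benjamini-Hochberg over all sites, adjusted p under 0.05). A site shifted without overlap where both ranks of a group lay beyond both of the other with a gap of at least 2-fold. The test was also run on simulated data with the same normal spread at every site and no absent summits, unlike the ranks here. Genes were the 20056 protein-coding genes of RefSeq GRCh38.p14, 15843 of them with a start outside chromosome 8, and a site belonged to a gene in or within 5000 bp of it. Named were HNRNPU, the 12 gene-linked sites per direction with the widest gap among those strong in both lists of the better group, genes of the 12 lists (up to 4 shifted per list, and all core pluripotency genes), and the 6 genes per direction with most sites, at least 3, shifted in 1 direction only (ties by symbol). MECOM, the other genes of the named regions and the 6 printed gene starts were chosen after their values were seen. Members, lists and rules were chosen with earlier results of these data known. The HNRNPU interval list of the whole series was not used. The values of 1 listed gene are not reported here. H3K27ac and POLIIS2P ranks were capped at 40000 and 75000, so that list length did not set a shift. The alternatives were 10000 or 40000 summits, 100, 500 or 1000 bp, sites in at least 2 lists, the score in place of the rank, sites with a summit in every list, antibodies by title, a replicate block, no trend, and each list left out. Python 3.11.15, numpy 2.4.6, pandas 2.3.3, scipy 1.17.1 and matplotlib 3.10.9 were used.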

Additional observations from a re-analysis of the deposited data

Results flagged for a closer look

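These results differ between the hairpins in that both shHNRNPU#1 lists lay on 1 side of the shLUC mean and both shHNRNPU#2 lists on the other. Both hairpins share the shLUC lists, and the difference between them was not tested. Sites with 11 to 20 genes around them had a median shift of 0.077 after shHNRNPU#1, against -0.03 and -0.03 in the shHNRNPU#2 lists, and sites with over 20 genes 0.13 against -0.08 and -0.01. Sites more than 10000 and up to 50000 bp from a gene start had 0.038 against -0.04 and -0.04, and those of chromosome 20 had 0.10 against -0.01 and -0.06.

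Among single sites that stood higher after shHNRNPU#1, the SORCS2 site at chr4:7435007 shifted by 2.21 (shHNRNPU#2 lists -0.38 and -0.19), the CHST11 site at chr12:104650805 by 1.83 (-0.23 and -0.51), the WAPL site at chr10:86524321 by 1.83 (-1.33 and -0.01) and the C1orf21 site at chr1:184514228 by 1.77 (-0.61 and -0.99). Of the lower sites, that of CHRNA4 at chr20:63352742 shifted by -4.20 (0.06 and 0.73), that of ZNF608 at chr5:124707217 by -3.77 (1.32 and 1.20) and that of THRAP3 at chr1:36258563 by -3.72 (1.76 and 0.08). The CHRNA4 and ZNF608 gaps fell under 2-fold with summits matched within 1000 bp, so these 2 shifts depend on the matching distance. The shHNRNPU#2 values rest on matching within 250 bp as well. The start of HSD17B7 shifted by -2.12 (1.23 and 0.34), the RNF43 site at chr17:58376017 by -1.84 (0.05 and 0.65), the EPHA3 site at chr3:89351128 by -1.57 (1.84 and 0.57) and the SEMA3A site at chr7:84277787 by -1.52 (0.12 and 0.10). With 2 lists per hairpin, both lists of each can fall on opposite sides by chance.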

How the results depend on the processing

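The limma calls, 283 higher and 229 lower, were the results that depended most on the processing. They were 73 and 37 with summits joined within 100 bp, 144 and 98 from the 10000 strongest summits, 25 and 8 without a trend, and 119 lower with incomplete sites dropped. They were 0 and 0 for sites in at least 2 lists (2884 with an unadjusted p under 0.05), 0 and 0 on the score scale, and 0 to 0 with each list left out in turn. The lists left alone in a group were then assumed to vary like the other group. The shifts without overlap, 1616 and 1588, became 921 and 875 with 10000 summits, 2765 and 2790 with 40000, and 468 and 344 on the score scale. With 1 list left out, which loosens the rule, they ranged from 3517 to 4443 higher and from 3942 to 4122 lower.

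The numbers of the repeats did not pair the lists (correlation of same-numbered deviations 0.05). With the repeat number as a block, 282 sites were higher and 233 lower.

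Class medians were recomputed with other summit numbers, with 100 or 500 bp, for sites in at least 2 lists, with incomplete sites dropped, by title and with each list left out. Those of sites with up to 2 genes, with over 20 genes and up to 500 bp before a gene start kept their sign under all of these except the titles. Upstream gene starts stood at 0.18 for sites in at least 2 lists, and 0.21 to 0.34 with a list left out. Sites with over 20 genes ranged from 0.054 to 0.158 with a list left out, those with up to 2 genes from -0.20 to -0.14, and gene ends from 0.051 to 0.181. Medians near 0 were less stable. Those with HNRNPU, with H3K27ac and in intergenic sites changed sign, and that of gene bodies stayed negative except by title. Sites with HNRNPU stood at 2.9e-05 with 10000 summits, 0.068 with 40000 and -0.014 to 0.061 with a list left out. Gene bodies stood at -0.025 within 100 bp, -0.049 with 10000 summits, -0.027 with 40000, -0.054 for at least 2 lists, -0.027 with incomplete sites dropped and -0.047 to -0.0040 with a list left out. Intergenic sites stood at 0.024 with 10000 summits, 0.0068 with incomplete sites dropped and -0.043 to 0.019 with a list left out, and sites with H3K27ac at -0.109 to 0.046. The overlap within groups exceeded that between groups by 3.81 percentage points, and by 4.48 with 10000 summits. The share of strong summits at gene ends was higher after shHNRNPU#1 by 0.41 points, by 0.12 with 10000 summits and by 0.20 to 0.62 with a list left out. The gene-poor share was lower, at -1.30 points and -1.79 to -0.81.

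With antibodies taken from the titles, the comparison sets H3K4me1 against lists that resemble H3K27ac. It gave 13691 and 12220 limma calls, 13778 and 15058 shifts, an overlap difference of 41.4 points, a gene-end share of -16.9 and a gene-poor share of 2.66 points. The medians became -1.85 with HNRNPU, -3.0 with H3K27ac, 0.24 in gene bodies, -2.58 at gene ends, 0.95 in intergenic sites, -1.36 with over 20 genes, 0.47 with up to 2 genes and -2.46 upstream of starts. Shifts of named sites changed sign at BMPR1A (0.99), C8orf34 (2.12 and 0.70), DAB1 (0.63), DNMT3A (3.41 and 1.24), EPHA3 (3.44), FRAS1 (1.86, 2.83 and 5.33), JARID2 (1.20), KDM1A (2.36), MEIS1 (2.86), OTX2 (5.89), PDE4D (6.08), PDK2 (1.32), RSRP1 (-1.96), SATB1 (1.50), TCF7L1 (2.00), UBE3C (-1.73), ZFPM2 (2.54 and 1.99) and ZNF724 (-1.56). Besides the titles, sign changes came at 4 moved summits, with 500 or 1000 bp at DNMT3A (0.038), PDK2 (0.59), RSRP1 (1.34) and TCF7L1 (-1.51), the last also with 40000 summits. Unknown read depth and ranks in place of amounts limit every value. The settings of 1000 bp, no trend and the gene-poor share were added after the data were seen.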
